A study of Mus musculus with 2 samples.

Results

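The 9 genes described here encode steps of aromatic and branched-chain amino acid breakdown in mouse liver. Tat, Hpd, Hgd and Fah belong to the phenylalanine-tyrosine route, and Bckdha, Bckdhb, Dbt, Bckdk and Bcat2 to the branched-chain route. They were taken by symbol, with every probe set annotated to 1 of these symbols and no other, which gave 11 of 34945 single-symbol probe sets and 9 of 18193 genes. Male wild-type C57BL/6J mice, an inbred laboratory strain, were housed singly, entered the experiment at 8 weeks of age and were 5 months old at the end. The calorie-restricted (CR) mice were given 20% less food in the first week and 40% less over the 11 weeks after it. The ad libitum (AL) mice ate freely for the same 12 weeks. Liver RNA of 3 mice per diet was combined in equal parts and hybridised to 1 Affymetrix array, so there was 1 value per diet, no replicate and no test. In whole-liver RNA, fewer cells of a type and less RNA per cell cannot be told apart.

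Phenylalanine is hydroxylated to tyrosine in liver with the cofactor tetrahydrobiopterin. Tyrosine is then transaminated and its ring is opened, which ends in fumarate and acetoacetate. The branched-chain amino acids leucine, isoleucine and valine are first transaminated, largely outside the liver, and their keto acids are oxidised by the mitochondrial branched-chain keto acid dehydrogenase, a complex that a kinase switches off by phosphorylation and a phosphatase switches on. Both routes are known for giving carbon to ketone bodies and to glucose synthesis in the fasted liver.

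The DNA just before the transcription starts of 2 genes of each route is shown because the routes differ in expression setting, one being largely a liver route and the other active in many tissues. RefSeq sequence of build GRCm38.p6 was used, and 8 of the 9 members had an entry, 4 of each route. Each line gives the 250 bases before the start, 5′ to 3′ in the direction of transcription, with matches of CCAAT and of GGGCGG on either strand in capitals.
Tat: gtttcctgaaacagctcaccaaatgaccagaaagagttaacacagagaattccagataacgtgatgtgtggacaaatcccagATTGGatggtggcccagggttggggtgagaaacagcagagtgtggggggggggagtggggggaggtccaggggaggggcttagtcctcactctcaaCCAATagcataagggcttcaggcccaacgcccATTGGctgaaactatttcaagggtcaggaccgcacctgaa
Hgd: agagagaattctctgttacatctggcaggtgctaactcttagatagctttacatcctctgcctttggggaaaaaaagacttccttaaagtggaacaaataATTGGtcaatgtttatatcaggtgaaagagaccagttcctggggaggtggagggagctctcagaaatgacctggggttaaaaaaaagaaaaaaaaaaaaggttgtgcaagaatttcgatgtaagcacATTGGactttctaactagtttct
Bckdha: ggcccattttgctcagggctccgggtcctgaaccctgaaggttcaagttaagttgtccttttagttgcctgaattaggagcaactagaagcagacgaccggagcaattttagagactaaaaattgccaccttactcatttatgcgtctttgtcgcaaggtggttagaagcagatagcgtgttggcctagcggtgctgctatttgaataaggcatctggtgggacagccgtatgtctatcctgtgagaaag
Bckdhb: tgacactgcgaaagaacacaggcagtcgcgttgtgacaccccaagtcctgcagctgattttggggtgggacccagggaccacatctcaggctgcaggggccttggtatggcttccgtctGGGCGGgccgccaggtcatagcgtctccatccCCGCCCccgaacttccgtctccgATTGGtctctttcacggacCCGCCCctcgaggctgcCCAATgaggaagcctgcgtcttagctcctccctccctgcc
The Tat window lies at chr8:109990186-109990435 on the plus strand, and the Hgd window at chr16:37579903-37580152 on the plus strand. The Bckdha window lies at chr7:25658762-25659011 on the minus strand, and the Bckdhb window, the first of 2 starts in the table, at chr9:83924887-83925136 on the plus strand. The Tat window held 3 CCAAT matches and 3 CpG dinucleotides, and the Hgd window held 2 CCAAT matches, 1 TATAAA match and 1 CpG. The Bckdha window held no match of either capitalised motif and 8 CpG, whereas the Bckdhb window held 2 CCAAT and 3 GGGCGG matches and 15 CpG. The routes did not separate by CpG content once the others were counted, since the window of Fah held 16 CpG and those of Hpd, Bckdk and Bcat2 held 7 each. Over all 32851 windows of this length the median was 6 CpG, with quartiles of 2 and 16.
Of the 8 members, 4 had a CCAAT match against 33.8% of all windows, 3 had GGGCGG against 32.7%, and 2 had TATAAA against 12.4%. All 3 motifs were searched on both strands. Matches of the 2 capitalised motifs did not overlap. A match is a description of these letters and not evidence of binding.

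Values are intensities on a linear scale, normalized by the authors with RMA, a method that corrects background, scales arrays to each other and combines the probes of a probe set. A difference is log2 intensity in CR less log2 intensity in AL. Where a gene had several probe sets, the brightest on average stands for it, and it counts as measured where its higher value reached 7.38, the median of all values on both arrays. Measured genes numbered 12644. All differences are relative to the typical gene, and scaling the arrays on spiked hybridisation controls would lower each of them by 1.02, or by 0.37 on the cre spike alone, which leaves no member higher in CR in the first case. The median difference of measured genes was -0.02, and the middle 50% lay between -0.29 and 0.23. A rough view of agreement between probe sets comes from 4924 genes with 2 or more measured probe sets, whose median SD between probe sets was 0.288. This SD holds no variation between arrays or between pools, and it serves as a yardstick of size only. Of the same 4924 genes, 52.7% had measured probe sets on both sides of 0. A direction read from a single probe set is therefore uncertain where the difference is small. Liver markers were bright in both pools, and 4 of 4 hepatocyte markers with a probe set were measured, with a median difference of -0.09. Among them Apob was at least 1.5-fold lower in CR on its brightest probe set, at -0.94 (0.20 on the other), and the Ttr probe sets ran from -1.60 to -0.07. The 3′ to 5′ ratio of the beta-actin control probe sets was 89.7 in CR and 83.5 in AL, a strong 3′ bias in both pools. For Gapdh the ratio was 53.2 in CR and 46.9 in AL. These control probe sets were all lower in CR, from -1.61 to -0.73 for beta-actin and from -1.11 to -0.67 for Gapdh.

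None of the 8 measured members differed by as much as 1.5-fold between the pools. Their differences ran from -0.27 for Bckdha to 0.58 for Dbt, with 4 above 0 and 4 below, and their median was 0.02. Among all measured genes 16.3% were at least 1.5-fold apart, 6.76% higher in CR and 9.49% lower, and 4.59% were at least 2-fold apart, 1.8% higher and 2.79% lower. A count of 0 among 8 genes lies near these shares and is not a result particular to the members. The ninth member, Bcat2, lay under the measured range in both pools.

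**Figure D1:**
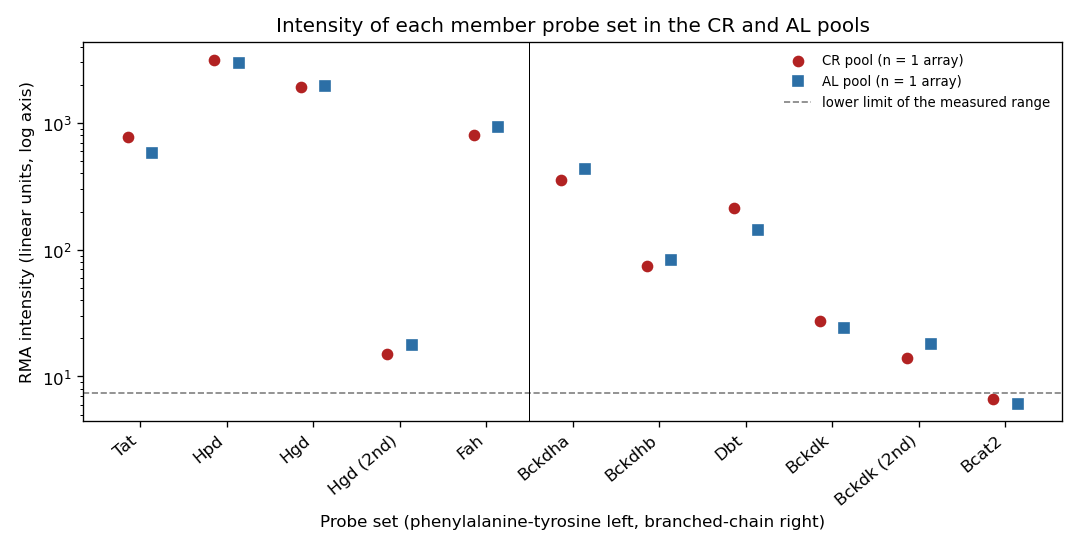
Intensity of each of the 11 member probe sets (log axis, linear intensity units) in the CR pool (circles) and the AL pool (squares), with 1 array per diet and therefore no error bars. The CR and AL symbols of every probe set lie close together, with the widest gap at Dbt (215 in CR, 144 in AL), and Bcat2 lies under the dashed limit of 7.38. Heights of different probe sets are not comparable with each other.

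Among the 4 tyrosine-route members the differences were lower at each later step, while Gstz1, the step between Hgd and Fah, stood lower than all 4 at -0.70. Tat, tyrosine aminotransferase, which takes the amino group off tyrosine and is a classic glucocorticoid-induced gene of liver, had an intensity of 777 in the CR pool and 577 in the AL pool (probe set 1451557_at). Tat was thus 1.35 times as bright in CR, a difference of 0.43 that lay above 88.1% of those of measured genes. Hpd, the dioxygenase that turns 4-hydroxyphenylpyruvate into homogentisate, had 3161 in CR and 2999 in AL (1424618_at), a difference of 0.08.

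Hgd, homogentisate dioxygenase, which opens the aromatic ring, had 1917 in CR and 1963 in AL (1452986_at), a difference of -0.03. A second Hgd probe set gave 15.0 in CR and 17.6 in AL (1458049_at), a difference of -0.23. Both Hgd probe sets were thus slightly lower in CR, by less than the typical disagreement between probe sets. Fah, the hydrolase that splits fumarylacetoacetate in the last step, had 808 in CR and 929 in AL (1417220_at), a difference of -0.20. Of these 4 genes only Tat differed by more than 0.288. With 4 genes and 1 array per diet the order of the values along the route is a description with no test.

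The remaining listed genes of the phenylalanine-tyrosine route lay lower in CR more often than higher. Many of them serve the cofactor tetrahydrobiopterin and are not breakdown steps themselves. Of 13 listed, 12 had a probe set and 11 were measured. Among the 11, 8 lay below 0 and 3 above, the median was -0.39, and 3 were at least 1.5-fold lower while none was as much higher. The share of measured genes at least 1.5-fold lower was 9.49%.

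The lower genes were Gch1, Gstz1 and Got2. Gch1, GTP cyclohydrolase, the first enzyme of tetrahydrobiopterin synthesis, had 242 in CR and 397 in AL, a difference of -0.72. Its other probe set, with 121 in CR and 201 in AL, gave -0.74, so both Gch1 probe sets were lower in CR by nearly the same amount.

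Gstz1, maleylacetoacetate isomerase, the step between Hgd and Fah, had 71.9 in CR and 117 in AL, a difference of -0.70 on its one probe set. Got2, the mitochondrial aspartate aminotransferase, which also accepts aromatic amino acids, had 559 in CR and 858 in AL, a difference of -0.62. Its second measured probe set gave -0.57, on the same side and just under 1.5-fold.

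The other bright genes of the route stayed within 1.5-fold. Qdpr, which regenerates tetrahydrobiopterin, stood at 0.15 on its brightest probe set, with 7354 in CR and 6645 in AL, and at -0.18 on the other. The brightest Qdpr probe set, unlike the other, was of a type that can match several transcripts. Pcbd1 and Pcbd2, dehydratases of the same recycling path, stood at -0.45 and -0.39. Gchfr, the feedback regulator of Gch1, stood at -0.20.

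The branched-chain dehydrogenase subunits did not share a direction. Bckdha, the alpha subunit of the decarboxylase and the target of the inactivating phosphorylation, had 357 in CR and 431 in AL (1416647_at), a difference of -0.27. Bckdhb, its beta subunit, had 74.1 in CR and 83.6 in AL (1427153_at), a difference of -0.17. Both decarboxylase subunits were thus lower in the CR pool, each by less than 0.288.

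Dbt, the transacylase that forms the core of the complex, had 215 in CR and 144 in AL (1449118_at). Its ratio of 1.498 stopped just short of 1.5-fold, and its difference of 0.58, the largest among the members, lay above 93.2% of those of measured genes. Dbt and Bckdha, parts of one complex, lay 0.86 apart on the log2 difference scale. Both rest on a single probe set, so no second probe set bears on them.

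Dld, dihydrolipoamide dehydrogenase, the subunit that the complex shares with pyruvate and 2-oxoglutarate dehydrogenase, was the gene of either route with the largest difference on its brightest probe set. Its intensity was 12.0 in CR and 43.4 in AL, a difference of -1.86. The other Dld probe set lay under the measured range in both pools, with 4.71 in CR and 4.70 in AL, so the value rests on 1 dim probe set.

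The kinase and the phosphatase of the complex both stayed within 1.5-fold on their brightest probe sets, and the probe sets of each differed. Bckdk, the kinase that inactivates the complex, had 27.2 in CR and 24.0 in AL (1460644_at), a difference of 0.18. Its other probe set, of a type that can match several transcripts, had 13.9 in CR and 18.1 in AL (1443813_x_at), a difference of -0.38. The direction for Bckdk was therefore not settled.

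Ppm1k, the phosphatase that reactivates the complex, had 218 in CR and 176 in AL, a difference of 0.31. Its second probe set, picked out after its value was seen, had 60.8 in CR and 25.3 in AL, a difference of 1.27. Both Ppm1k probe sets were higher in CR, by amounts that differed 0.96 on the log2 scale. The pyruvate dehydrogenase kinases, the nearest relatives of Bckdk, included larger differences. Pdk4 had 774 in CR and 8.10 in AL, a difference of 6.58 whose size depends on an AL value close to the limit of 7.38. Pdk1 had 429 in CR and 198 in AL, a difference of 1.12. The further measured probe sets of Pdk1 gave 0.64 and 0.08.

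Bcat2, the mitochondrial branched-chain aminotransferase, which is known to be scarce in hepatocytes, had 6.66 in CR and 6.07 in AL (1425764_a_at). Both values lay under the limit of 7.38, so no ratio is given. Markers of skeletal muscle, a tissue rich in this enzyme, had summed intensities of 54.1 in CR and 45.7 in AL over 6 genes, and 4 of the 6 lay under the limit in both pools. Those of pancreas summed to 50.7 in CR and 53.5 in AL over 4 genes, 2 of them under the limit in both pools.

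The rest of the branched-chain route, Dld and Ppm1k included, lay mostly within 1.5-fold on the brightest probe sets. Of 24 listed genes 23 had a probe set and were measured, with 9 above 0, 14 below and a median of -0.08. Only Dld was at least 1.5-fold apart, against 16.3% of all measured genes. Hibadh, 3-hydroxyisobutyrate dehydrogenase of valine breakdown, had 1974 in CR and 1902 in AL, a difference of 0.05.

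Single probe sets of several of these genes differed from the brightest one. The other Hibadh probe set had 214 in CR and 474 in AL, a difference of -1.15, so the Hibadh probe sets disagreed. The brightest Hibadh probe set, unlike the other, was of a type that can match several transcripts. Slc25a44, the mitochondrial carrier of branched-chain amino acids, picked out after its values were seen, stood at -0.30, -1.15 and -0.34 on its 3 probe sets, all lower in CR. Acat1, which cleaves the isoleucine intermediate and also serves ketone metabolism, ran from -0.41 to 0.45 over 3 probe sets, with -0.08 on the brightest.

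Mmut, the mutase through which valine and isoleucine carbon reaches succinyl-CoA, stood at 0.14, and its second measured probe set at 0.20. Acadsb, the dehydrogenase of the isoleucine branch, rests on a single probe set of a type that can match several transcripts. It had 478 in CR and 580 in AL, a difference of -0.28. These differences were smaller in size than 0.288, the median SD between probe sets of a gene.

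**Figure D2:**
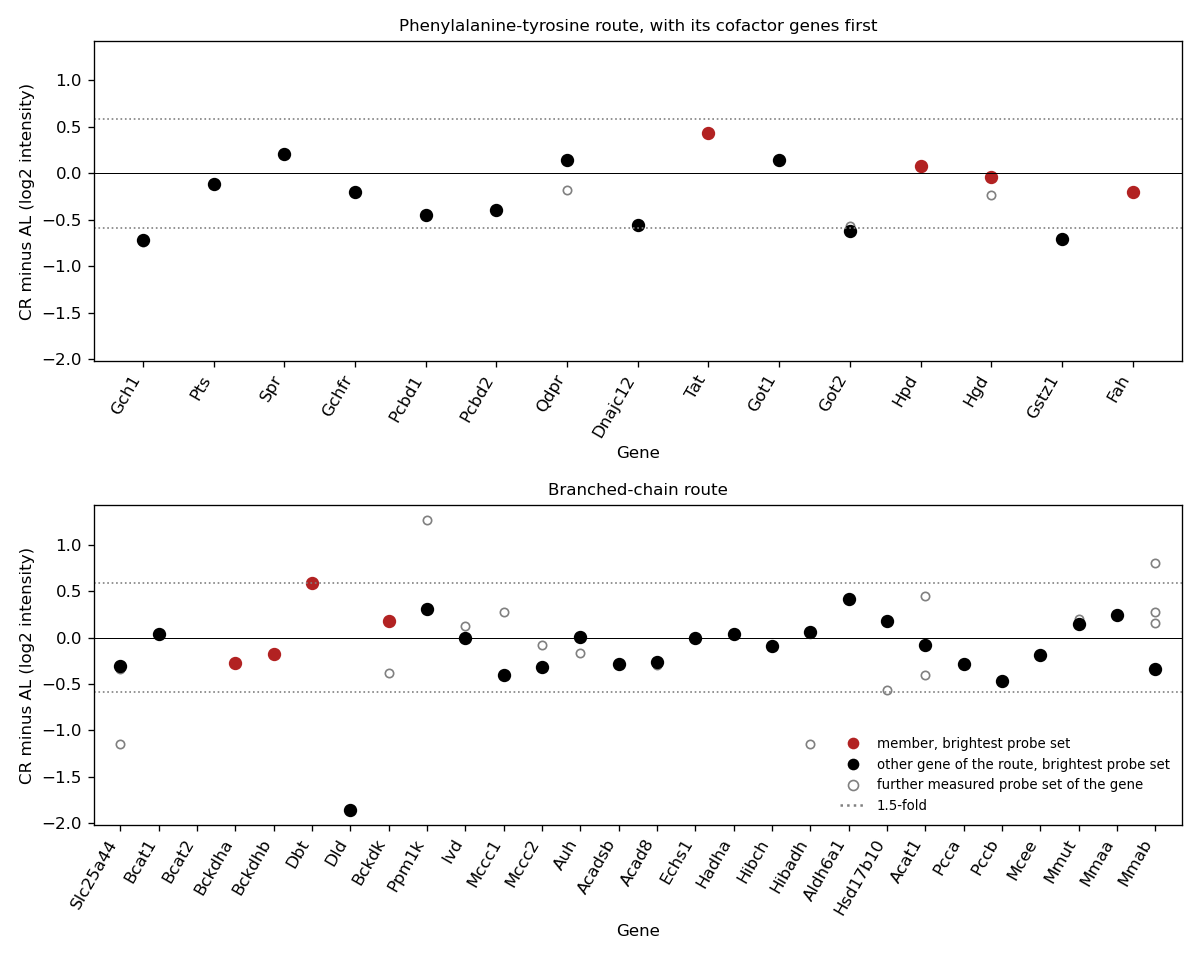
CR minus AL difference in log2 intensity for every measured gene of the phenylalanine-tyrosine route (upper panel) and the branched-chain route (lower panel), with filled points for the brightest probe set (members coloured), open circles for further measured probe sets and dotted lines at 1.5-fold. The upper panel includes the genes of tetrahydrobiopterin supply. No member passes a dotted line, Gch1, Got2 and Gstz1 lie below the lower one, Dld stands at -1.86, and Bcat2 has no point because it was not measured.

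Set side by side, the members of the routes overlapped in their differences. The median was 0.02 over the 4 phenylalanine-tyrosine members and 0.0035 over the 4 measured branched-chain members, and the first minus the second was 0.02. With the unmeasured Bcat2 counted, the branched-chain median became 0.13, which is the difference of Bcat2 itself and so rests on a probe set under the limit, and the first minus the second became -0.11. No spread between replicates was available for these medians, and the values of the routes overlapped, from -0.20 to 0.43 for the phenylalanine-tyrosine members and from -0.27 to 0.58 for the measured branched-chain members. Taken with the other listed genes, 10 of 15 measured phenylalanine-tyrosine genes and 16 of 27 measured branched-chain genes lay below 0, with medians of -0.20 and -0.08. The phenylalanine-tyrosine count includes the genes of tetrahydrobiopterin supply, so these counts do not compare breakdown steps alone. Among all measured genes 6589 of 12644 lay below 0.

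**Figure D3:**
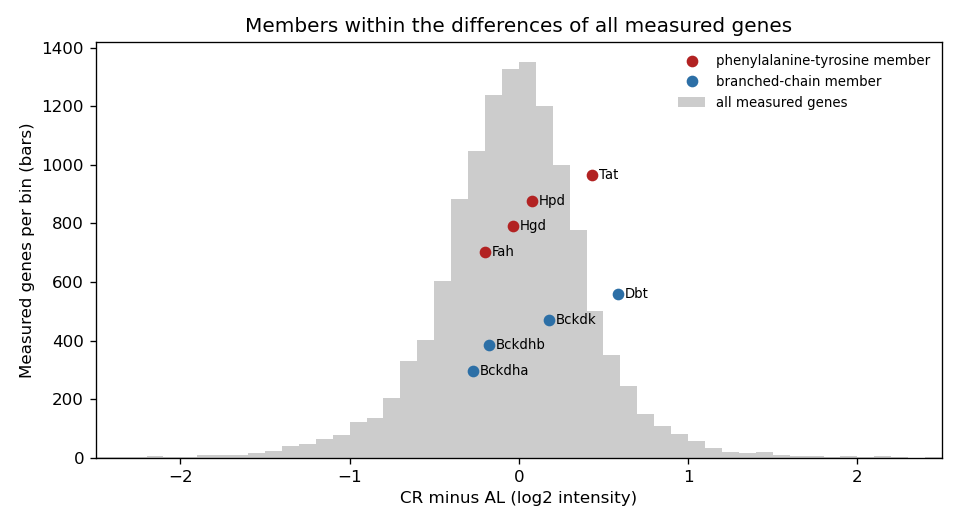
Histogram of the CR minus AL difference in log2 intensity over measured genes (grey bars, genes per bin of 0.1, shown between -2.5 and 2.5), with the 8 measured members marked at their differences and at heights chosen for legibility. The members run from -0.27 for Bckdha to 0.58 for Dbt, with Tat and Dbt to the right of the middle 50% of genes (-0.29 to 0.23).

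Other amino acid breakdown enzymes of liver, 22 measured of 26 listed, had a median of -0.16, with 13 below 0. Of the 22, 6 were at least 1.5-fold lower, beside 9.49% of all measured genes, and 1 was at least 1.5-fold higher, beside 6.76%. The 2 genes at least 2-fold lower were Tdo2, tryptophan dioxygenase, at -1.23, and Cdo1, cysteine dioxygenase, at -1.06. The other Tdo2 probe sets gave 0.00 and -0.38, so its value depended on the probe set.

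Transcription factors and receptors known to act on these routes or on liver metabolism lay in both directions. Of 12 measured regulators 7 were above 0 and 5 below, and the median was 0.28. At least 1.5-fold higher were 3 of them, beside 6.76% of all measured genes, and 1 was as much lower, beside 9.49%. Only the regulators past this fold are named. Klf15, a factor that promotes branched-chain amino acid breakdown, had 167 in CR and 104 in AL, a difference of 0.68. Ppara, the fasting-activated fatty acid receptor, stood at 1.04 and was higher on all 3 probe sets.

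Cebpb, a factor active in liver under fasting and glucocorticoids, stood at 0.89, although its dimmer probe set gave -0.38. Foxa2, a hepatic forkhead factor, had 137 in CR and 225 in AL, a difference of -0.72. No link between these values and the members was tested.

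Markers of some other liver cells differed between the pools as well. All 7 Kupffer cell markers were lower in CR on their brightest probe sets, with summed intensities of 1741 in CR and 1966 in AL and a median difference of -0.57. The brightest of them, Cd5l and Csf1r, stood at only -0.08 and -0.09. The further Csf1r probe sets gave -0.08 and 0.18, and Timd4 lay under the limit in the CR pool. The 3 measured neutrophil markers were lower too, and the 5 with a probe set summed to 39.4 in CR and 109 in AL, with 2 under the limit in both pools. Endothelial markers summed to 392 in CR and 442 in AL, stellate cell markers to 1714 in CR and 1750 in AL, and cholangiocyte markers to 54.8 in CR and 55.7 in AL. Of the measured genes, 3 of 5 endothelial, 2 of 6 stellate and 2 of 3 cholangiocyte markers were higher in CR. A sum is weighted to the bright probe sets and need not give the direction of most genes. Erythroid markers summed to 18.1 in CR and 51.4 in AL over 3 genes and adipose markers to 64.3 in CR and 62.4 in AL over 4 genes, with 2 of each list under the limit in both pools. Lymphocyte markers summed to 105 in each pool, with 4 of 6 under the limit in both. The part of these cells in the members' values was not tested.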

How the data were processed

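Liver RNA pools of 2 diets, CR and AL, were each measured on 1 array of 45101 probe sets, and the small number of arrays limits precision. The deposited values are intensities that the authors obtained by RMA according to the submitters' processing notes. They are on a linear scale, with a maximum of 14045 in CR and 18092 in AL, and no RMA version is stated in the labels. Normalization between arrays hides any change common to most genes. Each intensity was turned into log2 and AL was subtracted from CR. Symbols came from the platform annotation, in which 932 probe sets had several symbols, 9160 non-control probe sets had none, and neither kind was used. Listed genes without a single-symbol probe set were not analysed here. Text on other genes names those at least 1.5-fold apart on the brightest probe set and, in each route, the 4 brightest of the rest. From the other amino acid enzymes it names those at least 2-fold apart. The members and lists were chosen with earlier results of these data known. With 1 array per diet no gene could be named for a pattern like that of a member. The steps were tested on simulated data with known differences. Tables were handled in pandas 2.3.3 (Python 3.11.15), the loess came from statsmodels 0.14.6 and figures from matplotlib 3.10.9.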

Additional observations from a re-analysis of the deposited data

How the results depend on the processing

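With 1 array per diet no replicate could be left out, and no paired analysis was possible because each diet had 1 array. Scaling on the spiked hybridisation controls changed the values most, since it lowers every gene by 1.02 for all controls or by 0.37 for cre alone, by construction. Relative to each other the members kept their places. Scaled on all controls, the route medians were -0.99 for the phenylalanine-tyrosine members and -0.88 for the branched-chain members, with 6 members at least 1.5-fold and 4 at least 2-fold lower, and 34 other genes of the routes at least 1.5-fold lower. Scaled on cre, the medians were -0.35 for the phenylalanine-tyrosine members and -0.24 for the branched-chain members, with 1 member and 15 other genes at least 1.5-fold lower. Under the other 8 settings, namely averaged probe sets, no _x_at, _s_at or _a_at probe sets, no limit, a limit of 21.0, centring, loess (span 0.4), a pseudocount of 16 and, chosen after seeing the data, members under the limit left out, no member reached 1.5-fold and no single member's difference moved by 0.288, the median SD between probe sets of a gene, or more. Changing the limit or leaving members out cannot change a single member's difference, and centring lowers all of them by 0.015. Averaging or dropping probe sets cannot change the value of a member with 1 probe set. Bckdk changed sign with averaged probe sets, from 0.18 to -0.10. Neither route median has a settled sign. With averaged probe sets the phenylalanine-tyrosine median was -0.03 against 0.02, and the branched-chain median was -0.10 against 0.13. The difference between them, -0.11 with Bcat2 counted, became 0.07 with averaged probe sets and 0.02 where Bcat2 dropped out. The other genes of the routes at least 1.5-fold apart numbered 5 with averaged probe sets, 1 of them higher, and 3 without _x_at, _s_at and _a_at probe sets, against 4 in the report. The genes behind these counts changed. With averaged probe sets Got2 dropped out, while Slc25a44 entered as lower and Ppm1k as higher in CR. Without _x_at, _s_at and _a_at probe sets Gstz1 had none left, Got2 stood at -0.57 and Hibadh entered at -1.15.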
